A study of Homo sapiens with 2 samples.

Results

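The oligonucleotides described here were the probes of the A_21_P name class of the array, a class that holds many of the probes which the study lists for long non-coding RNAs (lncRNAs). They were chosen by name from the scanner output of both arrays, as spots that were not controls and whose probe name started with A_21_P or A_22_P. No probe name started with A_22_P (0 probes), so the set was 14948 A_21_P probes of 77162 non-control probes, on 43248 of 175556 spots. Each was a DNA oligonucleotide of 60 bases, and no sequence occurred under more than 1 of the 14948 names. Of the set, 14150 probes were printed 3 times on the array and 798 were printed once. They were compared with 11868 probes of the A_23_P class, another catalogue class of the array's maker.

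The RNA came from LNCaP cells, an androgen-responsive line from a human prostate cancer, which had been starved of hormone in charcoal-stripped serum. The 0 h group was taken before DHT (dihydrotestosterone, the androgen that was added), and the 2 h group was taken 2 h after 10 nM DHT. Each group was 1 total RNA sample, labelled with Cy3 and read on 1 array, so that treatment, culture, RNA handling and array cannot be told apart. With 1 array per condition no difference had a replicate check, no test was made, and every ± below is the SD of log2 signal over the spots of a probe within 1 array. In bulk RNA, fewer cells that hold a transcript and less transcript per cell cannot be told apart. The cell line was not checked against its marker genes here, because the files give no gene for any probe.

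LncRNAs are transcripts without a protein product, and many of them are present at low levels and in few tissues. MALAT1 is an abundant transcript of nuclear speckles, bodies that hold splicing factors, and NEAT1 is the RNA scaffold of paraspeckles, bodies that retain proteins and some RNAs in the nucleus. Other lncRNAs are transcribed from pseudogenes or from duplicated loci, where a probe can bind the RNA of more than 1 copy. A probe of this array has the sequence of the RNA strand it is meant to measure, and its signal depends on the sequence as well as on the RNA, so signals of different probes are given here as spot signals and not as RNA levels.

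Gene names were known for 137 A_21_P probes of 115 symbols, through the lists of changed lncRNAs that the study made from these same 2 arrays. The probes of 4 of these symbols are shown first, since they include the largest listed rises, a symbol with a bright and a dim probe, and a pair of nearly identical probes. Chromosomes are those of the study's lists, and the files give the probes no position in the genome. Each sequence runs 5′ to 3′, with runs of 4 or more C in capitals.
A_21_P0010980, MALAT1, chromosome 11: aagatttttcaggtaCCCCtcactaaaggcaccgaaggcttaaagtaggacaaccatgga
A_21_P0010981, MALAT1, chromosome 11: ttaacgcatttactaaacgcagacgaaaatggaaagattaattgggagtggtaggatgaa
A_21_P0010982, MALAT1, chromosome 11: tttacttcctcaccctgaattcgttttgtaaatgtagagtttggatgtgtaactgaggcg
A_21_P0010978, NEAT1, chromosome 11: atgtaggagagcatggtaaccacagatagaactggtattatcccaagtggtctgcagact
A_21_P0011024, NEAT1, chromosome 11: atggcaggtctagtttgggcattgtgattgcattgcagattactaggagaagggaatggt
A_21_P0010729, LOC388692, chromosome 1: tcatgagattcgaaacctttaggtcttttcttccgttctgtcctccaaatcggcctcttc
A_21_P0013925, LOC388692, chromosome 1: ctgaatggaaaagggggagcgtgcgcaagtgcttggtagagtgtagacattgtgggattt
A_21_P0010749, LOC100288069, chromosome 1: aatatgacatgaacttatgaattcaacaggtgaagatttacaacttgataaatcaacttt
A_21_P0011500, LOC100288069, chromosome 1: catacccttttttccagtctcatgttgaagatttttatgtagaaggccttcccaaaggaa
A_21_P0012877, LOC100288069, chromosome 1: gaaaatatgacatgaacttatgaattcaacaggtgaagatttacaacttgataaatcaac
The MALAT1 and NEAT1 probes share no stretch of 30 bases, whereas A_21_P0010749 and A_21_P0012877 share 57 bases and are nearly the same probe.

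The next 6 probes show what the longest run of C in a probe looked like along the class, since detection went with it. Each came from the probes printed 3 times with no spot dropped, as the one whose log2 signal at 2 h lay nearest the median of such probes in its group, passing over probes that a rule on probe numbers kept from being shown. This was done for groups with a longest run of 1, 2, 3, 4, 5 and 6 or more C. The study's lists name none of them.
A_21_P0006408: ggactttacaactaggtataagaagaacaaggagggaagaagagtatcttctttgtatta
A_21_P0006928: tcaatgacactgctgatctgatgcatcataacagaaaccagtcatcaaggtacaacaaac
A_21_P0002515: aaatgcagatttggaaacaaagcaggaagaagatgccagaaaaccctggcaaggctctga
A_21_P0005127: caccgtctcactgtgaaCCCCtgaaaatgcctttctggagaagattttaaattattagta
A_21_P0008545: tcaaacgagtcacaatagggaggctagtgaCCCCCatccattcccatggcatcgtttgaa
A_21_P0003364: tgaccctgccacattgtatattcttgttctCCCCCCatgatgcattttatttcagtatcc
Their log2 signals at 2 h were 3.35, 3.42, 3.84, 5.27, 7.75 and 10.4 in this order, and at 0 h they were 3.33, 3.65, 5.08, 5.52, 8.70 and 11.4. The first 3 were detected on neither array, A_21_P0005127 was detected at 2 h only, and the last 2 were detected on both arrays.

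Overlapping probes share part of the stretch they read and can differ in such a run. The following 3 pairs share 31, 31 and 52 bases on the same strand, and the first of each pair holds the run, which lies outside the shared bases or at their edge. Probes named oebiotech are custom probes of the array.
A_21_P0009166: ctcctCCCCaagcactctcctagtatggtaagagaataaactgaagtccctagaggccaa
oebiotech_25058: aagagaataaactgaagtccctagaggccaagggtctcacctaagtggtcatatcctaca
oebiotech_06688: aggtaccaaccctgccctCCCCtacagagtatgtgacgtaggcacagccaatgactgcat
A_21_P0008876: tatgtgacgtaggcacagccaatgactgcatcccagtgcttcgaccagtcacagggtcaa
A_21_P0001847: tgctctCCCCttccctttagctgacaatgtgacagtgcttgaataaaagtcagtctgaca
oebiotech_23287: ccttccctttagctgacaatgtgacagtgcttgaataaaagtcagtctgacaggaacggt
At 2 h the log2 signal of A_21_P0009166 was 15.5 ± 0.07 (3 spots) and that of its partner 3.46 ± 0.10 (3 spots). In the second pair oebiotech_06688 was at 14.9 ± 0.04 and A_21_P0008876 at 3.62 ± 0.55, and in the third A_21_P0001847 was at 12.7 ± 0.04 and oebiotech_23287 at 5.94 ± 0.23. The same order held at 0 h. The probes with the run were detected on both arrays, and of the partners only oebiotech_23287 was detected, at 2 h, so that the gaps of the first 2 pairs have no measured size. These pairs were picked for their large gaps after the values were seen, and the counts over all such pairs are given further on.

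Most A_21_P probes were not detected by the flags of the scanner software. A probe was called detected where at least a share of 0.5 of its unflagged spots were positive, significant and well above background by the scanner software. By this rule 2223 A_21_P probes (14.9%) were detected at 0 h and 3830 (25.6%) at 2 h, against 4890 (41.2%) and 7410 (62.4%) of the A_23_P probes. Both arrays detected 2194 A_21_P probes, the 0 h array alone 29 and the 2 h array alone 1636, and 11089 (74.2%) were detected on neither. Probes gained at 2 h thus made up 42.4% of the 3859 A_21_P probes detected on at least 1 array, and 34.3% of the 7440 such A_23_P probes. The array as a whole gained as well, from 25.2% of all non-control probes at 0 h to 41.9% at 2 h, and the gained probes were 40% of those detected on at least 1 array. The 2 h array also detected dimmer probes: its lowest detected signal was 4.64 against 5.65 at 0 h, and the 99th percentile of its negative controls, before normalization, was 3.43 against 4.13. The part of this in the gain was not tested. When only the mean signal had to pass that percentile, 27.9% of A_21_P probes at 0 h and 59.5% at 2 h did.

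The signals lay low over most of the class. After quantile normalization the median log2 signal over all A_21_P probes was 3.77 at 0 h and 3.57 at 2 h, and the 95th percentile was 9.09 and 8.91. The A_23_P probes had medians of 5.89 and 6.22, and the A_21_P probes printed once had 5.30 and 5.65. Before normalization the median A_21_P spot stood at 3.50 at 0 h and 3.48 at 2 h, close to the median of 3.40 and 3.23 of the 600 negative control spots of each array. Among the A_21_P probes detected on both arrays the median was 8.31 at 0 h and 8.01 at 2 h, near the 8.60 and 8.66 of detected A_23_P probes. The spot noise of A_21_P probes printed 3 times had a median SD of 0.16 at 0 h and 0.12 at 2 h. For the A_23_P probes it was 0.16 and 0.12, over the probes printed 3 or 7 times only, since 10687 of the 11868 were printed once.

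Between 0 h and 2 h, A_21_P probes with a measured signal on both arrays lay mostly lower. Of the 2194 probes detected on both, 675 (30.8%) were at least 2-fold lower and 174 (7.93%) at least 2-fold higher, while over all non-control probes detected on both arrays 19.2% were lower and 12% were higher. Of the A_23_P probes detected on both, 12.3% were lower and 13.8% were higher. Counting probes detected on at least 1 array, 969 A_21_P probes (25.1%) were at least 2-fold higher and 776 (20.1%) lower, beside 27.9% and 13.1% over all probes. The higher calls rested mainly on the 2 h array. Of the 969 probes, 795 were detected at 2 h only, and 301 of these were still past 2-fold when the 0 h side was raised to the lowest signal at which that array detected any probe. This is the bound behind each "at least" and "lower bound" here. It holds for quantile normalized signals only, and where the undetected signal itself lay above that lowest signal, the bound is the plain fold between the measured means. Of the 776 lower probes, 72 were detected at 2 h only, so that their fall has no bound, and 29 at 0 h only, all 29 past 2-fold as a lower bound. Counted by these bounds, 475 A_21_P probes were higher and 704 lower, of the 3859 detected on at least 1 array. Over all 32445 non-control probes so detected, the counts were 4850 and 3850. For the 7440 such A_23_P probes they were 1258 and 630. Higher probes were 55.5% of the A_21_P probes called changed, and 34.4% when the arrays were aligned on their 75th percentile, 99.1% with no scaling and 99.8% with a shift to the spike-in probes.

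The median log2 difference, 2 h minus 0 h, of the 2194 probes was -0.60, with quartiles of -1.12 and 0.04, and 73.9% of them were below 0. That of 4860 A_23_P probes was -0.09 (quartiles -0.65 and 0.60) and that of all 19321 non-control probes detected on both arrays was -0.29. The sign of the A_21_P median depends on the scaling between the arrays. With no scaling it was 0.60 and the median of all probes was 0.93. The distance of the A_21_P median from that of all probes was -0.32 with quantile normalization and -0.33 with no scaling. The A_21_P median minus the A_23_P median lay between -0.52 and -0.37 under each scaling, background correction, spot choice and detection filter that was run. The A_23_P probes were mostly printed once, and among probes printed once the order was turned, with medians of 0.14 in the A_21_P class and -0.11 in the A_23_P class.

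Among the 137 probes with a gene name, both arrays detected 55, the 2 h array alone 61, the 0 h array alone 6 and neither array 15. The study chose these probes for their change on these samples, so their directions are no independent evidence. Of the 55, 13 were at least 2-fold higher and 35 at least 2-fold lower, beside the 12% and 19.2% given above for all probes detected on both arrays. Of the 61, 25 were past 2-fold higher as a lower bound, beside 2539 of the 12989 non-control probes detected at 2 h only (19.5%). The 6 were past 2-fold lower as a lower bound, beside 134 of 135 non-control probes detected at 0 h only (99.3%). Of the 115 symbols, 43 were found in the RefSeq gene table, 32 of them as lncRNAs and 8 as transcribed pseudogenes.

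Among listed probes measured on both arrays, the 4 largest rises were those of nuclear lncRNAs, of which 5 probes are listed in all. MALAT1 was measured on both arrays by 3 probes. A_21_P0010982 went from 7.88 ± 0.07 at 0 h to 13.5 ± 0.14 at 2 h, a log2 difference of 5.61 (48.8-fold). A_21_P0010981 went from 8.84 ± 0.07 to 13.7 ± 0.01, a log2 difference of 4.88 (29.3-fold). A_21_P0010980 went from 9.70 ± 0.12 to 13.9 ± 0.10, a log2 difference of 4.24 (18.9-fold). All 3 were high at 2 h and at similar signals there, and their differences spread mainly through the 0 h side, where the probe that holds a run of 4 C was the brightest of the 3 and the first one named the dimmest. The NEAT1 probe A_21_P0011024 was at 7.11 ± 0.17 at 0 h and at 11.3 ± 0.09 at 2 h, an 18.4-fold difference. The other NEAT1 probe, A_21_P0010978, was not detected at 0 h (5.00 ± 1.02) and stood at 7.59 ± 0.22 at 2 h, which is at least 3.83-fold higher, with a log2 difference of 1.30 with normexp. These 5 probes were higher at 2 h under each alternative scaling and background correction.

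Probes of transcribed pseudogenes were among those chosen for their change, and 61 of all 137 listed probes were detected at 2 h only. Of the 8 symbols that RefSeq gives as transcribed pseudogenes, 6, with 9 listed probes, were undetected at 0 h and detected at 2 h, and 4 of these probes were past 2-fold as a lower bound, beside the 19.5% over all probes detected at 2 h only and 301 of 1636 in the A_21_P class. The other 2 differed from this: LOC440905 (now FAR2P1), at 3.51 ± 0.19 and 4.96 ± 0.26, was detected on neither array, and LOC650368 (now TSSC2) was detected on both, at 8.42 ± 0.02 and 10.5 ± 0.08. BMS1P1, a relative of the ribosome biogenesis gene BMS1, had the largest bound: A_21_P0010871 was at 4.38 ± 1.0 at 0 h and 9.44 ± 0.06 at 2 h, at least 13.8-fold higher, although with normexp its log2 difference was 2.89. SUZ12P (now SUZ12P1, related to the Polycomb gene SUZ12) was at 5.07 ± 0.53 and 7.10 ± 0.10, at least 2.73-fold higher. The 4 probes of SEPT7P2 (now SEPTIN7P2) had log2 signals from 4.32 to 6.62 at 0 h and from 5.80 to 7.88 at 2 h. Of these, A_21_P0013303 was at least 4.69-fold and A_21_P0013422 at least 2.19-fold higher, and the other 2 had lower bounds of 1.1-fold and 1.64-fold. With normexp the log2 differences of the first 2 were 1.37 and 0.69, the latter not past 2-fold. PI4KAP1 was at least 1.84-fold higher, and for UBE2Q2P2 and ZDHHC8P1 the 2 h signal lay under the lowest signal detected at 0 h, so that no bound above 1 could be given. A probe of such a transcript may also bind RNA of the parent gene, and the values are uncertain for the pseudogene on that account.

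A group of 6 symbols, taken as duplicated loci from background knowledge and not from the files, had 12 listed probes, of which 7 were undetected at 0 h and the other 5 were measured on each array. Of all 137 listed probes 61 were detected at 2 h only. GOLGA8A, a golgin gene with several copies on chromosome 15, was not detected at 0 h (3.75 ± 0.56) and stood at 8.49 ± 0.06 at 2 h, at least 7.14-fold higher. LOC100131564 (now CCDC18-AS1) had 2 probes, at least 2.23-fold and 1.49-fold higher, of which the first, A_21_P0001550, had a log2 difference of 0.86 with normexp, short of 2-fold. AP000525.10 had 2 that were detected at 2 h only, of which A_21_P0011477 was at least 6.62-fold and A_21_P0008289 at least 1.21-fold higher. The 3 probes of LOC100288069 were measured at 0 h as well as at 2 h, with log2 differences of 1.05, 1.33 and 1.35, the first 2 from the overlapping probes shown above. With normexp these were 0.58, 0.90 and 1.07, so that 1 stayed past 2-fold. LA16c-83F12.6 (now PSLNR) had 1 probe measured on both arrays, with a log2 difference of 1.19 (0.80 with normexp), and 1 that was at least 2.02-fold higher. LOC388692 (now LINC02591) had 2 probes. A_21_P0010729 was at 8.19 ± 0.03 at 0 h and 6.84 ± 0.06 at 2 h, 2.55-fold lower. A_21_P0013925 was undetected at 0 h (3.31 ± 0.03) and at 5.28 ± 0.22 at 2 h, too dim for a bound, so that it gave no direction. The fall of A_21_P0010729 became a rise with a shift to the spike-in probes (0.47 on the log2 scale) and with no scaling (0.061).

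PVT1, a lncRNA gene on chromosome 8 beside the oncogene MYC, had 2 listed probes. A_21_P0005949 went from 7.65 ± 0.14 to 8.72 ± 0.03, 2.10-fold higher, but not past 2-fold with normexp (a log2 difference of 0.80) or with the 75th percentile shift (0.83). A_21_P0005951 went from an undetected 5.69 ± 0.38 to 8.08 ± 0.08, at least 5.27-fold higher, with a log2 difference of 1.39 with normexp. The other 109 listed probes, of 100 symbols, held 34 of the 35 falls measured on both arrays. Measured on both arrays, 4 probes among them rose: LOC650368 (now TSSC2) by 4.31-fold, LOC100129917 (now PCGF3-AS1) by 3.86-fold, AC004854.4 by 3.86-fold and SMCR2 by 3.05-fold. The largest falls were those of RP1-137H15.2 on chromosome X, from 7.64 ± 0.06 to 5.42 ± 0.05 (4.67-fold), and of GS1-278J22.1 on chromosome 7, from 7.24 ± 0.03 to 5.27 ± 0.45 (3.91-fold). The listed probes of GTSCR1 and RP11-121L11.3 were detected at 0 h only and were at least 6.0-fold and 5.92-fold lower at 2 h. Their spots at 2 h spread with an SD of 1.57 and 0.70. With normexp their log2 differences were -1.33 and -1.07, with no scaling -1.84 and -1.33, and with a shift to the spike-in probes -1.43 and -0.92. With the first spot only they were -1.42 and -2.44, each a smaller fall than its bound.

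The sign of the listed falls depended on the scaling. With no scaling and with the shift to the spike-in probes the median of all probes lay 1.22 and 1.63 above that with quantile normalization. Of the 35 probes at least 2-fold lower on both arrays, 35 were lower when the arrays were aligned on their 75th percentile, 15 with no scaling and 4 with a shift to the spike-in probes. None of the 35 was past 2-fold lower (0 probes) with no scaling or with the shift to the spike-in probes. Of the 13 at least 2-fold higher on both arrays, 9 were still past 2-fold with the 75th percentile. With normexp, a background correction, 10 of the 35 lower probes, 9 of the 13 higher ones, 16 of the 25 higher by their bound and 3 of the 6 detected at 0 h only were past 2-fold. Of the 35 lower probes 12 held a run of 4 or more C, and of the 13 higher ones 2 did, beside 727 of all 2194 A_21_P probes detected on both arrays. Some listed probes had no measured change. Of the 15 detected on neither array, RP11-449J1.1 stood at 3.27 ± 0.04 and 3.35 ± 0.08 and AC098973.2 at 3.40 ± 0.06 and 3.50 ± 0.24, and for FLJ33534 (6.09 ± 2.72) and LINC00690 (5.70 ± 2.30) the spots at 0 h disagreed among themselves. The 0 h values of RP11-449J1.1 and AC098973.2 rest on 2 spots each, after 1 outlier-flagged spot was dropped. With such spots kept, their log2 differences went from 0.08 and 0.10 to -3.93 and -2.39, and in the deposited normalized table they were -5.01 and -3.49.

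Of the 17 symbols with several listed A_21_P probes, 8 lie outside the groups above, and their detected probes were all gained at 2 h. LOC100506233 (now RAB30-DT, a transcript that starts beside RAB30) had 3 probes, at least 3.83-fold, 2.40-fold and 1.47-fold higher. With normexp the log2 differences of the first 2, A_21_P0000829 and A_21_P0007250, were 1.31 and 0.48, so that the latter was not past 2-fold. With the first spot only that of A_21_P0007250 was 0.80, again not past 2-fold. GS1-124K5.2 had 2 probes, at least 4.21-fold and 2.53-fold higher. LOC100506930 (now LINC00665) had 1 probe, A_21_P0011742, that was at least 4.46-fold higher, and 1 too dim for a bound. RP11-206L10.9 had bounds of 4.31-fold and 1.07-fold, and LOC100271722 (now LINC00899) had 1.46-fold and 1.88-fold. RP11-1023L17.1 had 1 probe at least 2.85-fold higher and 1 detected on neither array, and LOC145837 (now DRAIC) had 1 at least 1.52-fold higher and 1 detected on neither. Both probes of LOC100286793, at 5.47 ± 0.14 and 5.65 ± 0.32 at 2 h, were too dim for a bound. Probes of 1 symbol thus gave unequal bounds. With normexp the log2 differences were 1.20 and 0.86 for A_21_P0013436 and A_21_P0013438 of GS1-124K5.2, 1.44 for A_21_P0011742 and 1.45 for A_21_P0010684, the brighter probe of RP11-206L10.9, each below the log2 of its bound. LOC100509487 had 1 probe, which went from an undetected 3.29 ± 0.08 to 8.47 ± 0.09 and was at least 7.05-fold higher.

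Of the 5 largest rises measured on both arrays, 3 were those of MALAT1, and the other 2 and the 5 largest falls were in probes without a known gene. The sequences of 1 such rise, of the largest fall and of a very bright probe follow.
A_21_P0007464: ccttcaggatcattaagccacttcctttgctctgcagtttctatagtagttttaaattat
A_21_P0005354: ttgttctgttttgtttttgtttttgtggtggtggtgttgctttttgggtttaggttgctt
A_21_P0005309: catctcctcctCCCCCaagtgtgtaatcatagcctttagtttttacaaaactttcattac
A_21_P0007464 rose from 7.30 ± 0.11 at 0 h to 12.5 ± 0.04 at 2 h (37.5-fold), and A_21_P0014903, another unnamed probe, from 7.85 ± 0.22 to 12.7 ± 0.13 (28.0-fold). The largest fall was that of A_21_P0005354, a G- and T-rich probe with 19 G and 3 C, from 9.30 ± 0.09 to 5.81 ± 0.35 (11.2-fold), followed by A_21_P0004462, from 8.55 ± 0.27 to 5.83 ± 0.94 (6.58-fold). With no scaling the fall of A_21_P0005354 remained, with a log2 difference of -2.20, and with a shift to the spike-in probes it was -1.79. That of A_21_P0004462 was -1.36 with no scaling, -0.95 with the shift to the spike-in probes, so not past 2-fold, -1.67 with normexp and -1.74 with the first spot only. The brightest probes lay near the top of both arrays. A_21_P0000106, printed once, stood at 18.3 and 18.5 on the log2 scale at 0 h and 2 h, and A_21_P0005309, with a run of 5 C, had 18.2 and 17.7.

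The log2 difference was also taken by signal level. For A_21_P probes detected on both arrays, the median log2 difference was -1.12 at a mean log2 signal of 6 to 7 (400 probes), -0.54 at 7 to 8 (612 probes), -0.45 at 8 to 10 (744 probes), -0.47 at 10 to 12 (275 probes) and -0.38 at 12 and over (150 probes). The A_23_P probes had -0.89, -0.02, 0.00, -0.03 and 0.04 in the same bins. The lowest of these bins is bound by the detection filter, since the 5th percentile of A_21_P probes detected on both arrays was 6.83 at 0 h and 5.71 at 2 h, and 0 of 400 A_21_P and 0 of 378 A_23_P probes there were at least 2-fold higher. Above it the medians of the whole A_21_P class lay under the A_23_P medians in each bin. The A_21_P probes printed once lay above the A_23_P medians there, with 0.25, 0.28, 0.18 and 0.16 in the same order. The A_21_P probes printed 3 times had -0.61, -0.56, -0.51 and -0.46. The A_23_P medians by level, and the weighted medians that follow, were not split by printing. Weighting the bins by the number of A_23_P probes, the A_21_P median was -0.53 and the A_23_P median -0.08, a distance of -0.45 against -0.51 without the weights. At 8 to 10, 178 of 744 A_21_P probes were at least 2-fold lower and 92 higher, and at 12 and over 9 of 150 were lower and 16 higher. Of the A_23_P probes at 8 to 10, 193 of 2171 were lower and 354 higher. At 12 and over, 16 of 281 A_23_P probes were lower and 50 higher.

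The GC share, the percent of G and C among the bases of a probe, had close medians in both classes but reached higher in the A_23_P class. The median was 41.7% for A_21_P probes (quartiles 36.7% and 45%) and 43.3% for A_23_P probes, and 5.67% and 11.6% of the probes lay at 55 to 60% GC. Detection rose with GC in both. Of A_21_P probes of 35 to 40% GC, 7.20% were detected at 0 h and 15.5% at 2 h, and of those of 55 to 60% GC, 42.3% and 56.6% were. For A_23_P probes these shares were 22.9% and 52.2%, and 64.3% and 76.3%. For A_21_P probes printed once they were 23.9% and 48.5%, and 52.4% and 71.4%. The log2 difference, in contrast, followed GC more steeply in the A_23_P class; no test of this contrast was possible with 1 array per condition. Its median went from 0.49 at 35 to 40% GC (736 probes) through 0.14 at 45 to 50% (1477 probes) to -0.60 at 55 to 60% (884 probes), whereas that of the A_21_P probes was -0.52 (387 probes), -0.60 (752 probes) and -0.69 (356 probes). Probes of 55% GC or over thus differed from those under 40% by -0.22 in the A_21_P class and by -1.07 in the A_23_P class. With detection on at least 1 array these contrasts were -0.96 and -1.49. The A_21_P probes printed once followed GC more steeply than the whole class, with medians of 0.57 at 35 to 40% (64 probes), -0.03 at 45 to 50% (98 probes) and -0.38 at 55 to 60% (44 probes). The classes as a whole lay closer together at 55 to 60% GC than at 35 to 50%, and under 35% GC their medians were -0.50 (11 probes) and -0.55 (22 probes).

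Medians were also taken at equal signal level. At a log2 signal of 8 to 10, A_21_P probes of 35 to 40% GC had a median log2 difference of -0.31 (126 probes) and A_23_P probes one of 0.58 (342 probes), while at 55 to 60% GC the medians were -0.67 (114 probes) and -0.55 (366 probes). Of the 126 probes, the 100 printed 3 times had a median of -0.60 and the 26 printed once a median of 0.51, near that of the A_23_P probes. Averaged within level bins, the contrast of high against low GC was -0.26 in the A_21_P class and -1.08 in the A_23_P class. These averages were not split by printing. Probes past 2-fold were also counted by GC. Among A_21_P probes detected on both arrays, 10.6% were higher at 35 to 40% GC and 2.25% at 55 to 60% GC, and 29.7% and 33.7% were lower. Among such A_23_P probes 26.2% and 1.47% were higher in these bins, and 5.43% and 22.7% were lower. Among such A_21_P probes printed once 26.6% and 0% were higher, and 4.69% and 20.5% were lower.

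Detection of A_21_P probes also went with runs of C. These counts, and those on printing and overlap that follow, were made after the values were seen. With a longest run of 1, 2, 3, 4, 5 and 6 or more C, the share of A_21_P probes detected at 0 h was 4.79%, 7.32%, 19.8%, 41.4%, 76.3% and 94.7%, and at 2 h it was 11.8%, 17.1%, 32.7%, 56.1%, 82.3% and 97.4%. The groups held 1378, 7707, 4350, 1226, 249 and 38 probes. Probes with a longest run of G of 4 or more were detected at 14.4% and 26.4%, close to the 14.9% and 25.5% of the others. Within these, 1169 probes with a longest run of 4 G were detected at 11.98% and 24.6%, 215 with 5 G at 25.1% and 34.4%, and 29 with 6 or more G at 34.5% and 41.4%. For runs of A the shares were 12.7% and 22.8%, for runs of T 13.6% and 24.7%. A_23_P probes with 4 or more G in a row were detected at 46.9% and 66.4%, beside 40.3% and 61.8% of the others. The 1513 A_21_P probes with 4 or more C in a row were 10.1% of the A_21_P class, and 61.5% of them were detected at 2 h against 21.6% of the rest. They made up 936 of the 3859 A_21_P probes detected on at least 1 array (24.3%), 5.20% of those detected on neither, and 13 of the 20 brightest.

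In the A_21_P class the number of C in a probe went the same way and the number of G did not. A_21_P probes with 7 to 9 C were detected at 2 h in 13% of cases, those with 13 to 15 C in 27.5% and those with 19 to 21 C in 83.3%. With 7 to 9, 13 to 15 and 19 to 21 G the shares were 31.6%, 23.2% and 24.3%. For A_23_P probes with these numbers of G they were 57.8%, 63.3% and 63.8% at 2 h, and 36.6%, 41.8% and 47.9% at 0 h. The run of C also told A_21_P probes apart within bins of GC share. At 35 to 40% GC, 48.1% of 335 probes with the run were detected at 2 h against 13.4% of 5192 without it, and at 55 to 60% GC 82.4% of 210 against 48.0% of 637. In the A_23_P class the shares at 2 h were 82.0% with the run and 60% without it, a smaller distance. At 0 h they were 70.1% and 37.7%, beside 48.4% and 11.1% in the A_21_P class. For A_21_P probes printed once the shares were 61.7% and 31.4% at 0 h, and 77.8% and 56.8% at 2 h. Runs near the 3′ end went with fewer detected probes. Of 206 A_21_P probes whose first run started at base 51 or later, 42.7% were detected at 2 h, and in the 5 bins of start from base 1 to base 50 the shares were 57.3%, 62.9%, 69.1%, 65.5% and 68.0%.

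Probes with long runs of C were also lower at 2 h. The median log2 difference of A_21_P probes detected on both arrays was 0.01 at a longest run of 1 (65 probes), -0.30 at 2 (549 probes), -0.58 at 3 (853 probes), -0.76 at 4 (502 probes), -0.91 at 5 (189 probes) and -0.95 at 6 or more (36 probes). Probes with 4 or more C in a row made up 276 of the 675 probes at least 2-fold lower (40.9%) and 19 of the 174 at least 2-fold higher (10.9%), beside 727 of all 2194 detected on both arrays. Without them the median of the class was -0.42. With 4 or more C in a row the median minus that of the rest was -0.43, and between -0.55 and -0.30 over the other scalings, background corrections and spot choices. The A_23_P class showed it as well, from 0.40 at a run of 1 to -0.80 at 6 or more. The distance changed with GC share. At 35 to 40% GC the A_21_P median was -0.96 with 4 or more C in a row (112 probes) and -0.31 without (275 probes). At 55 to 60% GC these medians were -0.80 (147 probes) and -0.57 (209 probes). At 60% GC and over the order was turned, with -0.81 (26 probes) and -0.87 (47 probes), and with -0.55 and -0.76 in the A_23_P class. Runs of G also went with lower differences, with a median of -0.96 for 200 A_21_P probes with 4 or more G in a row against -0.58 for 1994 others. The A_23_P class showed this order too, with medians of -0.29 (745 probes) and -0.05 (4115 probes). It was not seen among A_21_P probes printed once, with medians of 0.27 (21 probes) and 0.07 (253 probes). Nor was it seen in the 14 pairs that differed in such a run and were detected on both arrays. In these pairs the medians were 0.14 and 0.02, and the median within pairs was -0.01. Whether either run plays a part in the falls was not tested.

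Overlapping probes allowed the run to be compared on partly shared sequence. On the same strand, 2489 A_21_P probes shared at least 30 bases with another probe of the array, in 3099 pairs, of which 370 were pairs of A_21_P probes and 2648 were with a custom probe. In 118 pairs only 1 of the probes held 4 or more C in a row. The probe with the run was detected at 2 h in 84 of the 118 pairs (71.2%) and its partner in 47 (39.8%), and only the former was detected in 41 pairs and only the latter in 4. At 0 h the counts were 64 (54.2%) and 20 (16.9%), with only the former in 50 pairs and only the latter in 6. The probe with the run was brighter in 93 pairs at 2 h and in 97 at 0 h. Most partners were undetected, so the size of this gap was not measured. In 99 pairs that differed in a run of 4 or more G, the probe with the run was detected at 2 h in 44 and its partner in 42. Pairs share their source RNA over the overlap but can extend into different exons or copies, and the files give no gene structure. In the 14 C-run pairs detected on both arrays, the log2 difference of the probe with the run had a median of -0.59 and that of its partner -0.60, and the median of the difference within pairs was -0.12.

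Where 2 overlapping probes were both detected on both arrays, they moved together. Over 555 such pairs the log2 differences of the partners lay a median of 0.14 apart (upper quartile 0.29), near the spot noise of 0.12 to 0.16. In 227 pairs at least 1 probe was past 2-fold, and in 225 of them both moved the same way. The largest gap was 2.27. Pairs share arrays and much of their sequence, so this agreement covers the probes and not the samples.

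The 798 A_21_P probes printed once behaved otherwise than the 14150 printed 3 times. Of the former 34.5% were detected at 0 h and 58.9% at 2 h, and of the latter 13.8% and 23.7%. The median log2 difference of those detected on both arrays was 0.14 (274 probes) against -0.69 (1920 probes), and 17.9% of them were at least 2-fold higher against 6.51%. In the A_23_P class, the median of probes detected on both arrays was -0.11 for those printed once (4446 probes). It was -0.47 for those printed 3 times (68 probes) and 0.27 for those printed 7 times (346 probes). Among probes printed once the A_21_P median thus lay above the A_23_P median, and among those printed 3 times below it. The numbers in the probe names also separated the class. Of 999 probes numbered under 1000, 46.5% were detected at 2 h, 18.7% of 9000 numbered from 1000 to below 10000, and 34.0% of 4949 numbered 10000 and over. Taking only probes printed 3 times, these shares were 45.6%, 18.5% and 30.6%, and the median log2 differences were -0.44, -0.85 and -0.51. The median of the class thus averages over groups of probes whose medians were apart.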

How the data were processed

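The authors deposited, for each of the 2 arrays, the spot intensities and flags written by Agilent Feature Extraction 10.7.1.1, background subtracted and detrended, not normalized across arrays, and quantile normalized log2 values, 1 for each probe. Intensities of 175556 non-control spots were quantile normalized and put on the log2 scale, outlier-flagged spots were dropped (827 A_21_P spots at 0 h and 745 at 2 h; 4 probes kept no spot on an array), and the spots of a probe were averaged. No A_21_P spot was saturated (0 spots). Probes 2-fold apart or more between the arrays were called changed. With 1 array per condition, array number limits the precision of every value.

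The members, lists and groups were chosen with earlier results of these data known. The probes named were those of the study's list of top changes, those of symbols with several listed A_21_P probes, the listed probes of the gene groups described, and the 5 largest rises, 5 largest falls and 3 brightest probes (at most 2 unnamed ones in each direction); other listed probes named singly, the C-run examples and the pairs were chosen after their values were seen. Unnamed A_21_P probes were shown only from a middle range of probe numbers, where the nearest numbered listed probes on both sides were not of chromosome 8. Some listed items are not reported here. Symbols were updated from RefSeq (GRCh38.p14), whose coordinates were not used. Python 3.11.15, numpy 2.4.6, pandas 2.3.3, R 4.3.3 and limma 3.58.1 were used; calling was tested on simulated data. Alternatives covered scaling, background correction, the authors' table, flagged spots, single spots, detection and fold.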

Additional observations from a re-analysis of the deposited data

How the results depend on the processing

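No paired analysis was possible because each condition had 1 array and the labels carry no replicate numbers. The detected share of A_21_P probes was 16.8% at 0 h and 28.3% at 2 h when any spot counted, 27.9% and 59.5% when the mean signal had to pass the 99th percentile of the negative controls, and 14.0% at 0 h with the first spot only. The count of higher probes was 2665 with a shift to the spike-in probes, 2212 with no scaling, 318 with normexp, 174 with detection on both arrays, 607 at 3-fold and 475 with lower bounds. The count of lower probes was 1262 with the 75th percentile shift, which aligns the arrays on that percentile of their spots, 6 with the spike-in shift, 20 with no scaling, 275 with normexp, 1564 with no detection filter, 182 at 3-fold and 471 without probes that hold 4 or more C in a row. Higher probes were 55.5% of those changed, 34.4% with the 75th percentile shift, 99.8% with the spike-in shift and 99.1% with no scaling. They were 20.5% with detection on both arrays, 40.3% with lower bounds and 43.1% with no detection filter. At 3-fold they were 76.9%, and without probes that hold 4 or more C in a row 65.6%. The median log2 difference of A_21_P probes turned to 1.01 with the spike-in shift, to 0.60 with no scaling and to 0.14 for probes printed once. It was -1.05 with the 75th percentile shift, -0.43 with normexp, -0.12 with detection on at least 1 array and -0.42 without probes that hold 4 or more C in a row. The median of all probes detected on both arrays moved by -0.43, 1.63 and 1.22 with the 75th percentile shift, the spike-in shift and no scaling, which moves these values by construction; the cause of the other changes was not tested. The contrast of high against low GC in the A_21_P class was -0.96 with detection on at least 1 array. The distance between the A_21_P and A_23_P medians kept its direction, from -0.52 to -0.37 over the settings run, and from -0.57 to -0.34 at equal signal level, but it was turned among probes printed once, with medians of 0.14 and -0.11. A_21_P0010729 turned to 0.47 with the spike-in shift and 0.061 with no scaling. The C-run counts, the printing split and the pairs were chosen after the data were seen. Most A_21_P spots lay near the negative controls, so a probe that is not detected has no measured change.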
